A study of Mus musculus with 38 samples.

Results

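The aminoacyl-tRNA synthetase genes were examined in dentate gyrus granule cells that were positive or negative for the Arc::dVenus reporter. The genes were found by their symbols among the 23420 genes counted, which gave 37 genes: 19 for enzymes of the cytosol, 16 for enzymes of the mitochondria, and Gars and Kars, whose products work in both compartments. Lars2, the mitochondrial leucyl enzyme, was left out because its reads may come from mitochondrial ribosomal RNA, and it held between 983 and 478000 normalized CPM in the 38 libraries. All mice were adult C57BL/6J males carrying a transgene for a destabilized fluorescent protein (dVenus) under the promoter of Arc. Fear conditioned mice (FC, 12 mice) received foot shocks paired with tones in a context. No-shock mice (NS, 4 mice) went through the same session, tones included, without a shock, and home-cage mice (HC, 3 mice) were not trained. A day after training in FC and NS, 10 dVenus+ and 10 dVenus- cells per mouse were aspirated from slices through patch pipettes, and each pool of 10 cells gave 1 full-length cDNA library (SmartSeq2), 38 in all. The reporter reads the Arc promoter itself, so dVenus+ is defined by Arc transcription and not by behavior, also in the untrained mice. The FC mice came from 3 experiments of 2, 4 and 6 mice and the NS and HC mice from a further series of sample numbers, so that training and series cannot be told apart where FC is set against NS or HC.

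Aminoacyl-tRNA synthetases join each amino acid to its transfer RNA, the step by which the genetic code is read. Cytosol and mitochondria mostly use separate enzymes, both coded in the nucleus, and the symbols of the mitochondrial enzymes end in 2. The enzymes fall into class I and class II by the fold of their catalytic domain. A group of the cytosolic enzymes is held together in the multisynthetase complex by the scaffold proteins Aimp1, Aimp2 and Eef1e1. Many of the cytosolic genes are known targets of Atf4, the transcription factor of the integrated stress response, which is translated when amino acids or protein folding are limiting. Inherited defects of these enzymes cause peripheral neuropathies and leukodystrophies.

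Promoter windows of RefSeq (GRCm38.p6, from 250 bases before to 50 after the start) matched 26 of the 37 genes. The genes without a matched window include Cars, Hars, Hars2, Lars, Mars, Nars, Pars2, Rars, Vars and Wars. The composite of a C/EBP and an ATF half-site that Atf4 is known to bind was searched as TGATGNAAN on both strands, and 3.95% of all 32851 windows held it. It was present in 5 of the 26 genes, namely Aars, Gars, Iars, Tars and Yars, all among the 13 matched genes of the cytosol or of both compartments, and in 0 of the 13 matched mitochondrial genes. The cAMP response element TGACGTCA, an ATF and CREB site, was in 1.79% of all windows and in 0 of the 26 genes. In Iars and Yars the match lay after the start. The 3 genes with a match before the start are shown, since 2 of the genes called in FC mice, Aars and Tars, are among them. Each run is 100 bases of the coding strand, 5′ to 3′, with the match on the opposite strand in capitals, from chr8:111033683-111033782 on the plus strand for Aars (159 to 60 bases before the start), chr6:55037901-55038000 on the plus strand for Gars and chr15:11399659-11399758 on the minus strand for Tars (both 100 to 1 bases before the start).
Aars: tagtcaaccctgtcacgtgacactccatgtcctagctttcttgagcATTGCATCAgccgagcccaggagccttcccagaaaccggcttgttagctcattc
Gars: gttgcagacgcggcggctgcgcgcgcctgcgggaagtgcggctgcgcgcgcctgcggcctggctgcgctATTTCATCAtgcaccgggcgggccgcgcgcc
Tars: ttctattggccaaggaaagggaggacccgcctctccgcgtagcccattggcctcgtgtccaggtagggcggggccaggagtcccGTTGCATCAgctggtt
The start used for Aars lies inside the gene's full RefSeq span, which runs from 111027778 to 111055569 on chromosome 8. A match describes these letters only and shows no binding in these cells.

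Between 1352288 and 18394761 reads per library were counted on genes. Levels are given as normalized CPM, CPM of the counts on genes after TMM scaling over all libraries. Arc, the gene whose promoter drives the reporter, lay between 477 and 1540 normalized CPM in FC dVenus+ libraries and between 0 and 172 in FC dVenus- libraries (log2 fold change 8.75, SE 0.95, adjusted p = 6.49e-07, higher in 12 of 12 mice). In NS mice its log2 fold change was also 8.75 (SE 1.44, adjusted p = 0.00184), and in HC mice it was 8.33 (SE 1.61, adjusted p = 0.455) with higher levels in 3 of 3 mice. Of 6 granule cell markers, Calb1, C1ql2 and Camk2a were called lower in FC dVenus+ cells and none higher, and the summed level of the 6 ran from 276 to 2580 normalized CPM in dVenus+ (median 956), against 1330 to 3350 in dVenus- libraries (median 2000). Of 6 microglia markers, Csf1r, Aif1 and C1qa were called higher in FC dVenus+ cells, Cx3cr1 and P2ry12 were tested and not called, and Tmem119 was below the count filter. The summed level of the 6 microglia markers ran from 11.6 to 1150 normalized CPM in FC dVenus+ libraries (median 127), against 0.372 to 373 in FC dVenus- libraries (median 20.2), and in NS and HC mice none of the 3 and 4 tested was called, with median log2 fold changes of 3.87 and 3.97. Of the interneuron markers Npy was called higher and Gad1 lower. No oligodendrocyte or astrocyte marker was called in FC mice, and the 3 endothelial markers were below the filter, with Pecam1 at 0 in all FC libraries. The summed astrocyte markers had medians of 189, 1130 and 1300 normalized CPM in FC, NS and HC dVenus+ libraries, and 390, 980 and 381 in dVenus- libraries. For oligodendrocyte markers the medians were 479, 1240 and 1160 in dVenus+ and 545, 1920 and 2000 in dVenus- libraries. FC is thus set against NS and HC libraries that differ in these markers.

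Cytosolic synthetase genes were expressed at far higher levels than mitochondrial ones in these cells. Per kb of exon, the median level over the 38 libraries was highest for Nars, the asparaginyl enzyme (75.8 normalized CPM per kb, quartiles 47.5 and 136), followed by Hars, the histidyl enzyme (38, quartiles 19.9 and 84), Sars, the seryl enzyme (36.3, quartiles 21.6 and 58.0) and Gars, the glycyl enzyme (33.8, quartiles 20.1 and 70.9). The quartiles of Hars, Sars and Gars overlapped widely, so their order is not settled by these libraries. Of the 10 genes with the highest medians, 9 were cytosolic and the other was Gars. The median of the gene medians was 15.5 normalized CPM per kb over the 19 cytosolic genes and 0.248 over the 16 mitochondrial genes. The highest mitochondrial gene was Tars2, the threonyl enzyme of mitochondria, at rank 17 of 37 (6.15). Sars2, Ears2 and Nars2 had a median of 0. At least 10 counts were reached in 21 to 38 of the 38 libraries for each cytosolic gene and in 12 to 31 for each mitochondrial gene, so a mitochondrial value rests on fewer libraries with reads. The lowest cytosolic gene was Tarsl2, the second threonyl enzyme, at 1.35 normalized CPM per kb, and Qars (2.42), Vars (2.77) and Mars (2.83) followed it.

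**Figure D1:**
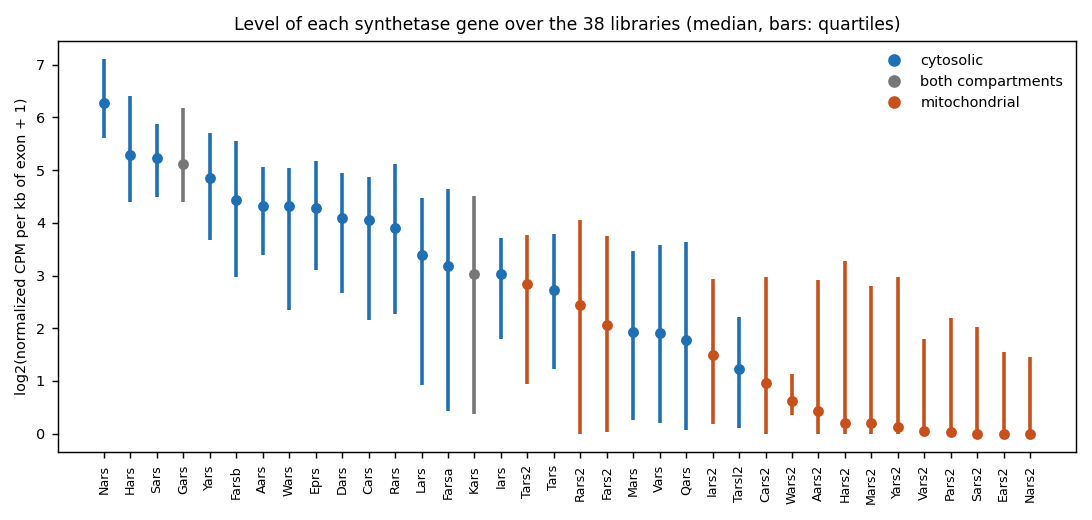
Median level of 36 of the 37 genes over 38 libraries, as log2 of normalized CPM per kb of exon plus 1, with bars from the lower to the upper quartile and colors for the compartment. The cytosolic genes fill the left side, led by Nars at 75.8 normalized CPM per kb, and the mitochondrial genes start with Tars2 at rank 17.

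In FC mice, 4 synthetase genes were higher in dVenus+ than in dVenus- cells, all of them cytosolic: Hars, Aars, Nars and Tars, the histidyl, alanyl, asparaginyl and threonyl enzymes. A gene was called when edgeR's quasi-likelihood test with the mouse as block gave an adjusted p under 0.05 and a log2 fold change beyond 1 in either direction. The test needed 10 counts or more in 12 of the 24 libraries, which 35 of the 37 genes had. Ears2 and Pars2 did not. Of all 9709 genes tested, 1.5% were called higher and 2.84% were called lower, against 4 higher and 0 lower of the 35 synthetase genes. At an unadjusted p under 0.05, 7 synthetase genes were higher and 1 lower, where 6.49% of all genes were higher and 11.3% were lower. The other genes at that level were Eprs, Cars and Sars, also cytosolic and higher, and Vars2, mitochondrial and lower. In GRCm38.p6, Hars lies on chromosome 18 from 36766528 to 36783205 (minus strand), Nars on chromosome 18 from 64499655 to 64516515 (minus strand), Aars on chromosome 8 from 111027778 to 111055569 (plus strand) and Tars on chromosome 15 from 11383663 to 11399658 (minus strand).

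Hars was higher in dVenus+ cells in each of the 12 FC mice. Its level ran from 54.4 to 379 normalized CPM in dVenus+ libraries (median 198), against 13.8 to 157 in dVenus- libraries (median 47.2). The ranges overlapped although every pair went up. The log2 fold change was 1.92 (SE 0.40, adjusted p = 0.00573, edgeR). Leaving out any of the 12 mice left Hars called, with log2 fold changes between 1.71 and 2.07. Hars overlaps in its exons with Hars2, its mitochondrial counterpart on the opposite strand of chromosome 18, and the libraries do not keep strand. Hars2 was not called (log2 fold change 1.08, SE 1.06, adjusted p = 0.659).

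Aars, whose product charges tRNA with alanine, ran from 15.1 to 1190 normalized CPM in dVenus+ libraries (median 242), against 2.24 to 278 in dVenus- libraries (median 63.3), and dVenus+ was higher in 10 of 12 mice. The log2 fold change was 2.22 (SE 0.56, adjusted p = 0.0207). Mice 05 and 07, both of the experiment of 4 mice, were the pairs in which Aars was lower in dVenus+ cells. Without mouse 14 the adjusted p was 0.0567 and Aars was not called. Exons of Aars overlap exons of Exosc6 on the same strand, where a read cannot be given to either gene.

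Nars, the most abundant of the family, ran from 143 to 1170 normalized CPM in dVenus+ libraries (median 318), against 16.8 to 332 in dVenus- libraries (median 120). It was higher in 11 of 12 mice, with a log2 fold change of 1.57 (SE 0.43, adjusted p = 0.0343). Its lowest dVenus+ library lay above the dVenus- median. Nars was not called without mouse 03, 05, 06, 12, 13 or 14, each left out alone, with adjusted p up to 0.0797.

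Tars, the cytosolic threonyl enzyme, ran from 10.8 to 390 normalized CPM in dVenus+ libraries (median 55.4), against 0.0845 to 82.2 in dVenus- libraries (median 18.0), and it was higher in 11 of 12 mice. The log2 fold change was 2.29 (SE 0.65, adjusted p = 0.0392). All 12 dVenus+ libraries reached 10 counts against 9 of 12 dVenus- libraries. Of the 12 fits that each left out 1 mouse, Tars was called in 3 (without mouse 05, 07 or 11), and in the other 9 the adjusted p was up to 0.0957.

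Eprs, Cars and Sars had unadjusted p under 0.05 and were not called. Eprs, the glutamyl-prolyl enzyme of the multisynthetase complex, ran from 72.7 to 1050 normalized CPM in dVenus+ (median 180), against 18.9 to 188 in dVenus- libraries (median 85.8), with a log2 fold change of 1.39 (SE 0.45, adjusted p = 0.0739) and higher levels in 9 of 12 mice. Cars, the cysteinyl enzyme, ran from 36.3 to 189 (median 120) and from 0.146 to 197 (median 49.9), with a log2 fold change of 1.58 (SE 0.56, adjusted p = 0.108). Sars ran from 22.5 to 631 (median 223) and from 30.2 to 211 (median 97.5), with a log2 fold change of 1.01 (SE 0.46, adjusted p = 0.239). Cars and Sars were each higher in 10 of 12 mice, and in all 3 genes the ranges of the groups overlapped.

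**Figure D2:**
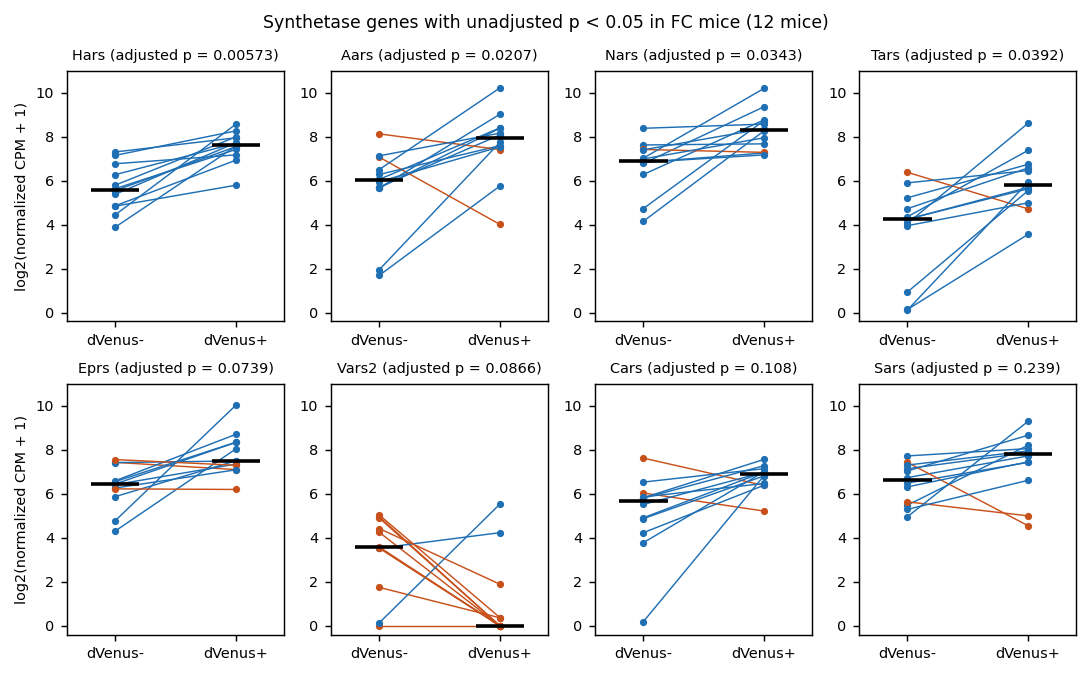
Level of the 8 genes with unadjusted p under 0.05 in the 12 FC mice, as log2 of normalized CPM plus 1, with lines joining both libraries of a mouse (blue where dVenus+ is higher, orange otherwise) and black bars at the medians. All 12 lines of Hars go up, and in Vars2 7 of the 12 dVenus+ libraries lie at 0.

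The 4 genes were higher in dVenus+ cells in each of the 3 FC experiments on average. For Hars the mean within-mouse difference of log2(normalized CPM + 1) was 2.73 ± 1.34 (SD) in the experiment of 2 mice, 1.80 ± 0.58 in that of 4 and 1.68 ± 1.38 in that of 6. For Aars it was 1.84 ± 0.75, 1.52 ± 4.11 and 2.46 ± 1.02, for Nars 1.46 ± 1.45, 1.65 ± 2.05 and 1.60 ± 1.59, and for Tars 1.49 ± 0.06, 2.05 ± 3.16 and 2.73 ± 1.71, in the same order. In the experiment of 6 mice, all 4 genes were higher in 6 of 6 mice. The test run on single experiments called Aars in that of 6 mice and none of the family in that of 4, where 15 and 12 of all genes were called.

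Microglia markers were higher in FC dVenus+ libraries, as these 4 genes were. Without the 4 FC mice with the highest microglia marker sum in the dVenus+ library (292 to 1150 normalized CPM), Aars was called and the log2 fold changes of Hars, Aars, Nars and Tars were 1.75, 2.99, 1.94 and 2.78, with adjusted p of 0.0722, 0.00714, 0.0708 and 0.0608. In that fit of fewer mice, 117 of all 10114 genes were called. With the log2 microglia sum as a further term in the fit of all 12 mice, the log2 fold changes were 1.96, 2.06, 2.83 and 2.68 and none was called (adjusted p 0.241, 0.614, 0.0953 and 0.68), while 24 of all 9709 genes were called in place of 422. The part of these markers in the result was not tested beyond these fits. In bulk pools, more RNA per cell and more cells of a type cannot be told apart.

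The remaining cytosolic genes were tested and not called. Across the 19 cytosolic genes, all of which were tested, 14 log2 fold changes were above 0 and the median was 0.69, with a range from -1.03 to 2.29. Over all 9709 genes 45.9% were above 0 and the median was -0.11. Rars, the arginyl enzyme, had 0.99 (SE 0.55), Farsb, a subunit of the phenylalanyl enzyme, 0.77 (SE 0.76) and Yars, the tyrosyl enzyme, 0.69 (SE 0.57). Iars, Farsa, Lars and Mars lay between 0.03 and 0.39. The 5 below 0 were Dars (-1.03, SE 0.64), Tarsl2 (-0.50), Vars (-0.41), Wars (-0.37) and Qars (-0.15). Of the genes whose products work in both compartments, Gars had 0.96 (SE 0.51, adjusted p = 0.332), with 13.0 to 289 normalized CPM in dVenus+ (median 155) and 13.4 to 279 in dVenus- libraries (median 68.9). Kars, the lysyl enzyme, had -0.28 (SE 0.93, adjusted p = 0.924).

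None of the 14 mitochondrial genes tested was called in FC mice by edgeR with the block, and their median log2 fold change was -0.20, with 6 above 0. Vars2, the mitochondrial valyl enzyme, stood lowest. It ran from 0 to 45.7 normalized CPM in dVenus+ (median 0), against 0 to 31.9 in dVenus- libraries (median 10.8). It had no count in 7 of 12 dVenus+ libraries and in 1 of 12 dVenus- libraries, and was higher in dVenus+ cells in 2 of 12 mice. The log2 fold change was -3.28 (SE 1.11, adjusted p = 0.0866), and Vars2 was called without mouse 09 (-4.25, adjusted p = 0.0158) or mouse 10 (-4.17, adjusted p = 0.042). DESeq2's Wald test called it (-6.72, adjusted p = 1.91e-06), among 1635 of all 9709 genes, and edgeR without the block gave -1.33 (adjusted p = 0.389). The others ranged from -1.93 for Cars2 (SE 1.05) to 1.57 for Nars2 (SE 1.17), with adjusted p of 0.347 and above. Exons of Iars2 overlap those of Rab3gap2 on the opposite strand, where a read without strand cannot be given to either gene.

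**Figure D3:**
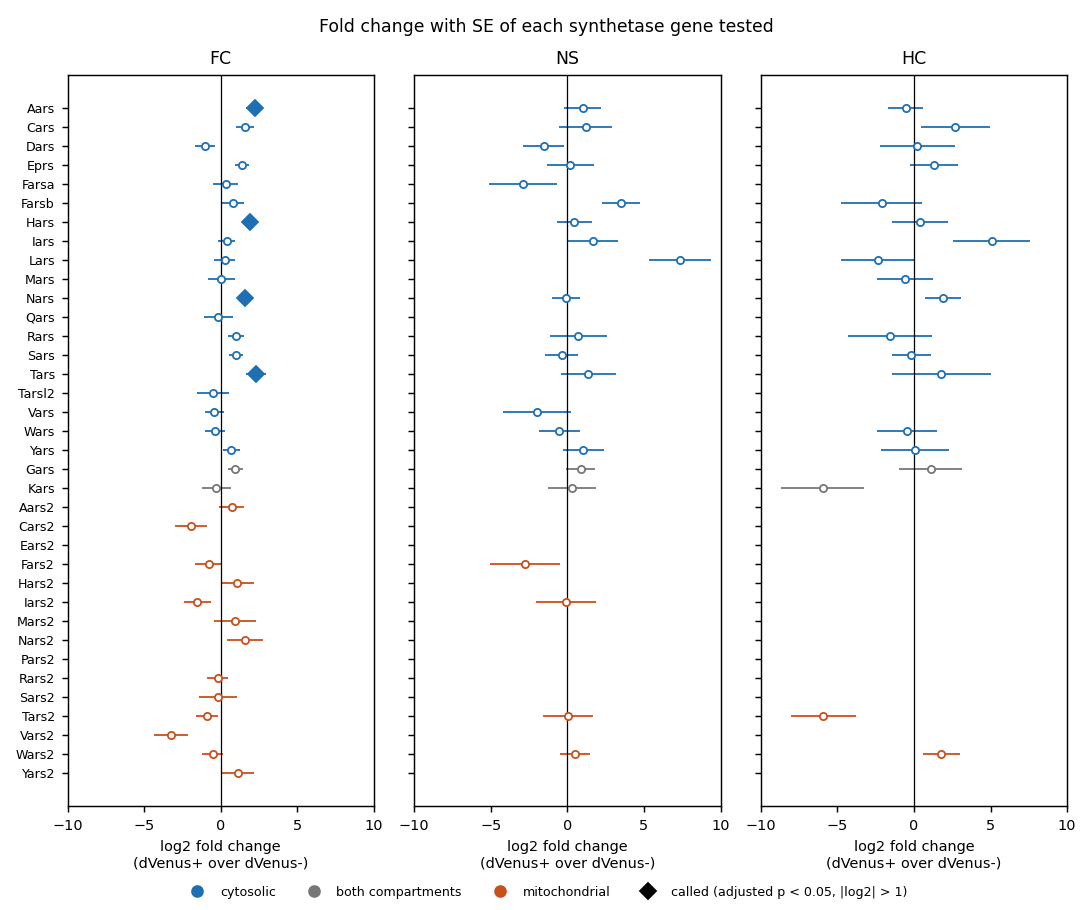
Log2 fold change of dVenus+ over dVenus- with its SE for the genes tested, of the 36 shown, in FC (12 mice), NS (4) and HC (3), with colors for the compartment and filled diamonds for genes called. The 4 diamonds are Aars, Hars, Nars and Tars in FC, and the SEs in NS and HC reach up to 3.24.

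Within the family, the genes called were all known Atf4 targets except Hars. Of the 13 enzymes on a list of known Atf4 targets, all were tested in FC, 3 were called higher, 11 had a log2 fold change above 0 and the median was 0.96. Of the other 8 cytosolic or dual genes, 1 was called, 4 were above 0 and the median was 0.08. Of the 8 enzymes of the multisynthetase complex, 0 were called by edgeR, 1 had an unadjusted p under 0.05 (Eprs) and the median was 0.15. DESeq2's Wald test, which called 1635 of all 9709 genes, called Eprs among them. All 4 genes called belong to class II, of which 18 were tested (median 0.74), and of the 16 class I genes tested 0 were called by edgeR and 1 (Cars) was higher and 1 (Vars2) lower at an unadjusted p under 0.05, both of which DESeq2 called (median -0.06). These lists overlap. Of all 9709 genes, 1.5% were called higher and 2.84% lower, 45.9% had a log2 fold change above 0, and the median was -0.11. At an unadjusted p under 0.05, 6.49% of all genes were higher and 11.3% lower. At these shares, 0 called in lists of 8 or 16 genes is no trait of those lists.

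Summed as normalized CPM over the class, cytosolic synthetase RNA was higher in dVenus+ than in dVenus- cells in 12 of 12 FC mice and mitochondrial synthetase RNA in 7 of 12. As a mean over genes of log2(normalized CPM + 1), in which each gene weighs the same, the cytosolic difference was 0.66 ± 0.86 (higher in 9 of 12 mice) and the mitochondrial one -0.38 ± 0.85 (higher in 4 of 12). The sum over the 19 cytosolic genes ran from 1690 to 4500 normalized CPM in FC dVenus+ libraries (median 2080), against 669 to 1840 in FC dVenus- libraries (median 1070). Only the dVenus- library of mouse 10 (1840) lay above the lowest dVenus+ library. The within-mouse difference of the log2 sum was 1.14 ± 0.68 (SD, n = 12 mice), from 0.34 in mouse 10 to 2.51 in mouse 14. The sum over the 16 mitochondrial genes ran from 100 to 422 (median 261) and from 135 to 429 (median 239), and its within-mouse difference was -0.06 ± 0.77, higher in 7 of 12 mice. The cytosolic difference was the greater in 12 of 12 mice, by 1.20 ± 0.96, from 0.20 in mouse 07 to 3.67 in mouse 05. A scaling factor per library cancels in this last difference, apart from the added 1. Its value without TMM scaling (1.20, SD 0.95) could therefore hardly move. As the mean over genes it was 1.04 ± 0.48, and with Gars and Kars in the cytosolic class 1.13 ± 1.00, above 0 in 11 of 12 mice each time. CPM without TMM scaling gave 0.76 ± 0.73 for the cytosolic sum, higher in 11 of 12 mice. For the mitochondrial sum it gave -0.44 ± 1.14, higher in 3 of 12. Without the 4 mice highest in microglia markers, the cytosolic sum differed by 1.00 ± 0.69 and was higher in 8 of 8 mice, and cytosolic minus mitochondrial was 1.08 ± 0.61. No test was run on these sums, which are scores over genes chosen with results known. Gene by gene, between 8 (mouse 05) and 18 (mouse 09) of the 19 cytosolic genes were higher in dVenus+ cells in single FC mice, where 34.8% to 56% of all genes with a count were higher.

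**Figure D4:**
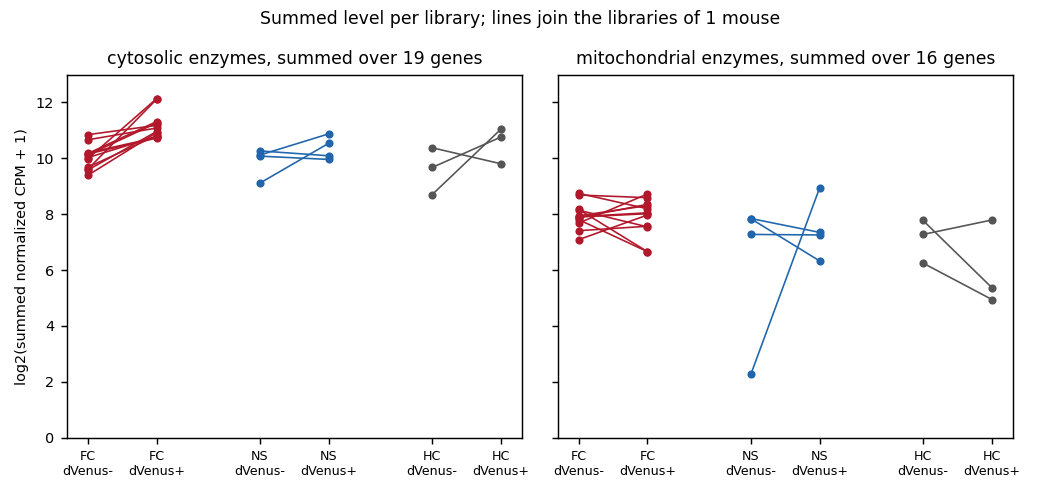
Summed level of the 19 cytosolic (left) and 16 mitochondrial genes (right) in each library, as log2 of the summed normalized CPM plus 1, with lines joining the libraries of a mouse. All 12 FC lines go up on the left and 7 of 12 on the right, and the NS dVenus- library of mouse 18 lies lowest on the right at 3.81 normalized CPM.

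In NS mice no synthetase gene was called. At least 10 counts in at least 4 of 8 libraries were reached by 23 of the 37 genes. Of all 8187 genes tested, 0.0366% were called higher and 0.0122% lower, and at an unadjusted p under 0.05 4.21% were higher and 4.46% lower. In the family 2 genes were higher at that level, Lars and Farsb, and 0 were lower. DESeq2's Wald test called 3 (Lars and Farsb higher, Fars2 lower), among 666 of all 8187 genes. Lars, the leucyl enzyme, had 88.9, 79.5, 23.2 and 121 normalized CPM in the dVenus+ libraries of mice 18, 19, 20 and 21, and 0, 0, 1.19 and 0 in their dVenus- libraries. Lars had the smallest p of the family in NS, and its log2 fold change was 7.35 (SE 2.01, adjusted p = 0.257). In FC mice Lars ran from 0.563 to 194 in dVenus+ libraries and 4.82 to 85.7 in dVenus- ones, with a log2 fold change of 0.26 (SE 0.70). Farsb had 68.3, 33.6, 163 and 269 in NS dVenus+ libraries and 1.98, 9.57, 5.23 and 42.7 in NS dVenus- libraries. It was higher in 4 of 4 mice, with overlap through mouse 19 and mouse 21, and the log2 fold change was 3.51 (SE 1.25, adjusted p = 0.493). Farsa, the other subunit of the phenylalanyl enzyme, had 2.83, 5.96, 0 and 0 in dVenus+ and 0, 4.15, 94.6 and 37 in dVenus- libraries, with -2.88 (SE 2.23, adjusted p = 0.717).

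The genes called in FC mice had smaller log2 fold changes in NS mice. They were picked by their FC values, which alone makes smaller values in another group likely. For none of the 4 was the FC change shown to differ from that in NS. Hars had 138, 125, 133 and 26.9 normalized CPM in dVenus+ and 17.5, 62.7, 186 and 68.5 in dVenus- libraries, higher in 2 of 4 mice (log2 fold change 0.46, SE 1.12). The log2 fold changes of Aars, Nars and Tars were 1.00 (SE 1.19), -0.09 (SE 0.89) and 1.38 (SE 1.78). The cytosolic sum differed by 0.48 ± 0.77 within mice (higher in 2 of 4), by 0.16 without mouse 19 and by -0.03 without TMM scaling. The mitochondrial sum differed by 1.16 ± 3.73 (higher in 1 of 4), by -0.68 without mouse 18 and by 2.05 without mouse 21. The dVenus- library of mouse 18 had 3.81 normalized CPM over the 16 mitochondrial genes against 154 to 229 in the other 3.

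In HC mice no synthetase gene was called by edgeR, nor any other gene. At least 10 counts in at least 3 of 6 libraries were reached by 20 of the 37 genes. Of all 7588 genes tested, 0% were called in either direction, and at an unadjusted p under 0.05 3.8% were higher and 3.22% lower. In the family 1 gene, Tars2, was lower at that level and 0 were higher. DESeq2's Wald test also called Tars2, among 625 of all 7588 genes. Tars2, Kars and Iars are given because they had the smallest p of the family in HC. Tars2 had 6.58, 0 and 0 normalized CPM in the dVenus+ libraries of mice 15, 16 and 17 and 88.7, 74.0 and 82.6 in their dVenus- libraries (log2 fold change -5.91, SE 2.12, adjusted p = 0.677). Kars had 0.549, 0 and 1.59 in dVenus+ and 39.4, 0 and 85.0 in dVenus- libraries (-5.96, SE 2.71, adjusted p = 0.712). Iars, the isoleucyl enzyme, had 4.11, 3.25 and 42.4 in dVenus+ and 0.742, 0 and 0 in dVenus- libraries (5.07, SE 2.53, adjusted p = 0.717). Hars, Aars, Nars and Tars had log2 fold changes of 0.42 (SE 1.83), -0.54 (SE 1.13), 1.89 (SE 1.17) and 1.79 (SE 3.24). Nars was higher in 3 of 3 HC mice, with 347, 1200 and 549 normalized CPM against 267, 29.8 and 240. The cytosolic sum differed by 0.95 ± 1.47 (higher in 2 of 3), by 0.26 without mouse 16, by 1.72 without mouse 15 and by 0.03 without TMM scaling. The mitochondrial sum differed by -1.07 ± 1.48 (higher in 1 of 3), by -0.39 without mouse 17, by -1.86 without mouse 15, by -1.96 without TMM scaling and by 0.01 as the mean over genes.

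The change in FC mice was not shown to differ from that in NS or HC mice for any synthetase gene. When all 38 libraries were fitted together, again blocked by mouse, all 37 genes were tested and 0% of 14075 genes passed at an adjusted p under 0.05 against NS and against HC. DESeq2's Wald test of the same terms passed 3 synthetase genes against NS (Lars, Pars2 and Vars2, all with the lower change in FC). Against HC it passed 7 (Farsb and Tars2 with the higher, Iars, Iars2, Sars2, Tarsl2 and Vars2 with the lower change in FC). None of these was Hars, Aars, Nars or Tars. Sizes from that test moved with rounding. How many of all genes passed it is not given, so the 3 and 7 cannot be read as a result about the family. Pars2 and Vars2 had no count in NS dVenus- libraries, nor had Iars2, Sars2, Tarsl2 and Vars2 in HC dVenus- libraries. In the edgeR fit against NS, 1 synthetase gene had the higher and 3 the lower change in FC at an unadjusted p under 0.05, where 1.68% and 3.74% of all genes did. Against HC these were 1 and 5 genes, where 1.85% and 4.48% of all genes did. These counts moved with single mice, from 4 to 7 genes against NS without mouse 21 and from 6 to 2 against HC without mouse 15. The difference in log2 fold change, FC minus NS, was 1.42 (SE 1.08) for Hars, 1.22 (SE 1.30) for Aars, 1.62 (SE 1.06) for Nars and 1.55 (SE 2.39) for Tars. For FC minus HC it was 1.36 (SE 1.27), 2.63 (SE 1.30), -0.51 (SE 1.26) and -0.52 (SE 2.21). The lowest adjusted p in the family was 0.876 against NS, which Lars had with a difference of -10.12 (SE 2.65), and 0.77 against HC.

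**Figure D5:**
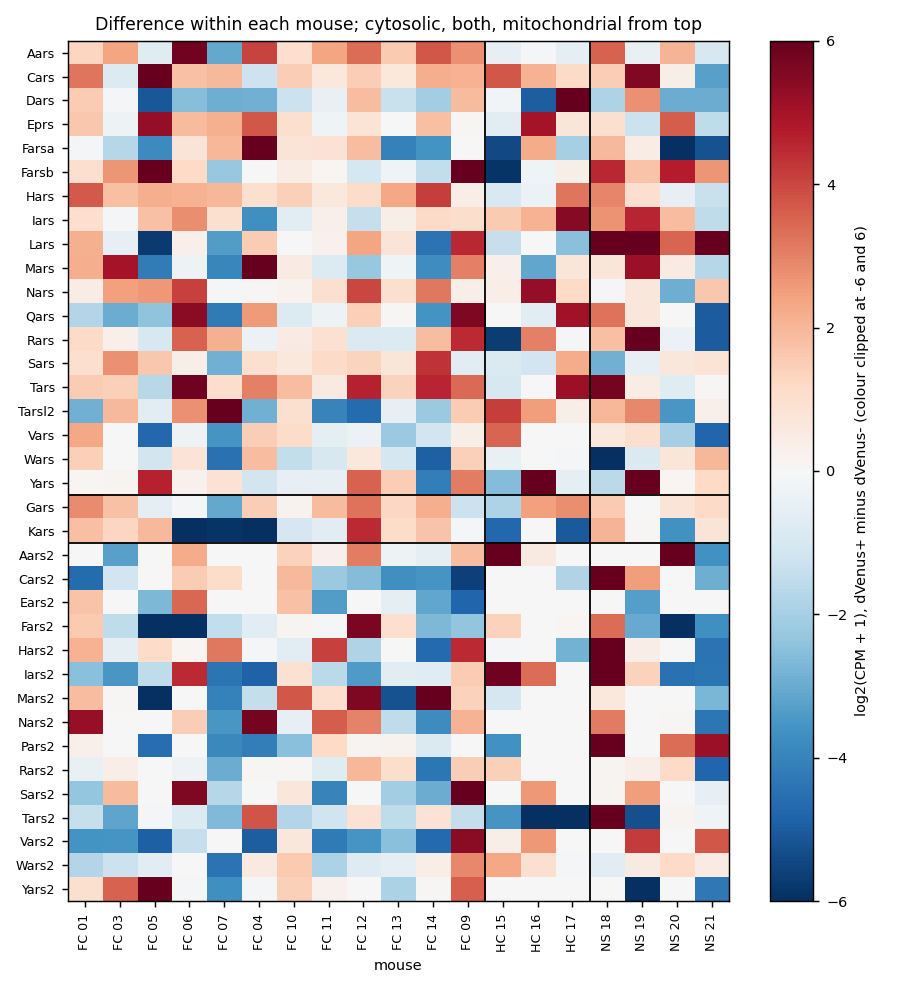
Difference of log2(normalized CPM + 1), dVenus+ minus dVenus-, within each of the 19 mice (columns) for 36 of the 37 genes (rows), red where dVenus+ is higher. The row of Hars is red in all 12 FC mice, the row of Lars is dark red in the NS mice, and most mitochondrial rows mix both colors.

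Among the genes that work with the synthetases, Atf4 and its target Ddit3 were higher in FC dVenus+ cells. Atf4 ran from 69.2 to 505 normalized CPM in dVenus+ (median 196), against 0.105 to 142 in dVenus- libraries (median 37.9), higher in 12 of 12 mice (log2 fold change 2.64, SE 0.60, adjusted p = 0.00964). Ddit3, which encodes the stress factor Chop, ran from 9.57 to 416 (median 62.9) and from 0.0674 to 48.6 (median 11.4), higher in 11 of 12 mice (2.79, SE 0.70, adjusted p = 0.0195), and its exons overlap those of Mars on the opposite strand. Like Hars, Nars and Tars, neither was called in the 8 mice left without the 4 highest in microglia markers, where the log2 fold changes were 2.40 and 2.83 (adjusted p 0.0695 and 0.0956). Over all genes that fit called 117 of 10114, against 422 of 9709 in all 12 mice. With the microglia sum as a term in all 12 mice they were 2.70 and 2.92 (adjusted p 0.439 and 0.634). Both genes were called in each of the 12 fits that left out 1 mouse. Neither was called with the older quasi-likelihood method (adjusted p 0.0722 and 0.132), which called 137 of all 9709 genes. Neither was called in the experiment of 4 or of 6 mice alone. Without a count filter Atf4 was called and Ddit3 was not (adjusted p 0.033 and 0.0563). In NS mice Atf4 had -0.41 (SE 1.36) and Ddit3 3.70 (SE 2.09), and in HC mice they had 3.33 (SE 1.91) and 0.62 (SE 3.27). Of the 7 genes of the Atf4 axis, 5 were tested in FC, 2 were called higher and 0 lower, where 1.5% of all genes were called higher and 2.84% lower. Sesn2, a sensor of leucine, had 3.17 (SE 1.41, adjusted p = 0.227), Ddit4, an inhibitor of mTORC1 signaling, -1.36 (SE 0.64, adjusted p = 0.256) and Atf5 0.82 (SE 0.88), and Trib3 and Chac1 were below the filter.

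Of the 11 genes of amino acid supply, 9 were tested in FC and 0 were called by edgeR, with 2 at an unadjusted p under 0.05. These were Slc38a2, a transporter of small neutral amino acids (log2 fold change 2.46, SE 0.78, adjusted p = 0.0673), and Asns, which makes asparagine (2.22, SE 0.73, adjusted p = 0.0805), each higher in 9 of 12 mice. Of the 4 genes of tRNA maturation and export, all were tested with log2 fold changes between 0.43 and 2.97 and 0 were called, and Elac2, the nuclease that trims the 3′ end of tRNA precursors, had 2.97 (SE 1.02, adjusted p = 0.0994). Xpot, the exporter of tRNA from the nucleus, had 1.45 (SE 0.73, adjusted p = 0.301). Of the 3 genes of trans-editing, which remove amino acids from wrongly charged tRNA, 0 were called and Dtd1, which removes D-amino acids, had -2.41 (SE 0.75, adjusted p = 0.0611). The 3 scaffolds of the multisynthetase complex (-1.29 to 0.42), the 6 cytosolic elongation factors (-0.72 to 1.11) and the 7 tested mitochondrial partners (-1.19 to 1.73) had no gene called and none with an unadjusted p under 0.05. Of the genes of selenocysteine charging, Pstk had -0.17 and Sepsecs was below the filter. Over all 44 genes of these lists, 38 were tested, 2 were called higher and 0 lower (1.5% and 2.84% of all genes), 24 had a log2 fold change above 0 and the median was 0.42.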

How the data were processed

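RNA of 10 dVenus+ and of 10 dVenus- cells per mouse had been sequenced in 38 libraries. The deposited values are counts: the authors aligned single reads to mm10 with TopHat2 2.0.13 and counted uniquely aligned reads on NCBI transcripts with HTSeq 0.6.0, without normalization, strand or molecular identifiers. The 5 entries that name no gene were left out, and reads outside genes made up 16.4% to 59.7% of a library. A table of the whole series with 38 columns was not used. Groups, mice and experiments come from titles and characteristics, since in 10 libraries of NS and HC mice the description points to a different library.

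Each group was fitted on its own in edgeR 4.0.16 (R 4.3.3) with TMM scaling, glmQLFit and glmQLFTest, two-sided, with the mouse as block and Benjamini-Hochberg adjustment over all genes tested. Genes were tested with 10 counts or more in 12 (FC), 4 (NS) or 3 (HC) libraries, and in 3 libraries for the fit of all 38. The pairing rests on both libraries coming from 1 animal. Their deviations from the group means had a median correlation of 0.0492 (FC), -0.0151 (NS) and 0.0238 (HC). The common biological coefficient of variation was 1.2 for FC and 1.42 for both other groups. Exon lengths are unions over GENCODE M21 transcripts paired with RefSeq (GRCm38), and promoters are from RefSeq GRCm38.p6. Fits were also run on simulated counts with a smaller spread than these data and no differences between mice. That run therefore says little on their power here. The sums are log2 of summed normalized CPM plus 1.

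The genes, the lists, the tests and the alternatives were chosen with earlier results of these data known. All genes enter the counts, of which 1 mitochondrial gene is not reported here by itself, and values per library (lowest, median and highest in FC) are given for genes with an unadjusted p under 0.05 in FC, the 3 with the smallest p in NS and in HC, and the 4 highest in level per kb. Genes of the related lists are named by role, with values for those called or with unadjusted p under 0.05 and the others as examples. Alternatives were DESeq2 1.42.0 (size factors or Wald test), other count filters, the older quasi-likelihood method, no block, subsets of mice, and for the sums other scalings. The microglia alternatives and leaving out mice in the 38-library fit were chosen after seeing the data.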

Additional observations from a re-analysis of the deposited data

Results flagged for a closer look

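Among the groups of 4 NS libraries, 37 sets of values were examined with Dixon's ratio. The ratio is the gap of the most extreme library to its neighbor over the whole range. Of these sets, 3 passed the ratio's 95% critical value. That value flags about 1 in 20 sets by chance only where levels follow a normal distribution. Normalized CPM with libraries at no count need not do so, and the chance rate here is not known. Hars in NS dVenus+ libraries had a ratio of 0.883, with mouse 21 at 26.9 normalized CPM and the others between 125 and 138. Iars in NS dVenus+ libraries had a ratio of 0.854, with mouse 20 at 152 normalized CPM and the others between 5.39 and 26.8. Lars in NS dVenus- libraries had a ratio of 1, with mouse 20 at 1.19 normalized CPM (15 counts) and no count in the other 3. When 3 libraries are equal, the ratio is 1 at any differing level of the remaining library. The Lars flag therefore does not single out mouse 20 as unusual.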

How the results depend on the processing

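Mitochondrial genes reached 10 counts in fewer libraries than cytosolic ones, and every synthetase gene tested had a larger SE in NS and HC, with 4 and 3 mice, than in FC. Of the alternatives for the 4 genes called in FC, the count was 1 without a count filter (303 of all 18089 genes). It was also 1 with the older quasi-likelihood method (137 of all 9709 genes), and the gene was Hars both times. It was 7 with DESeq2's Wald test (with Cars, Eprs and, lower, Vars2), among 1635 of all 9709 genes called. It was 1 in the experiment of 6 mice (15 of all 10340 genes) and 0 in that of 4 (12 of all 9199 genes). When a mouse was left out it was between 1 and 4, with 292 to 405 of all genes called. Without mouse 09 or mouse 10 the genes called were Aars, Hars, Nars and, lower, Vars2, and Tars was not called. The count was 1 without the 4 mice highest in microglia markers (117 of all 10114 genes) and 0 with these markers as a term (24 of all 9709 genes). Without the block for the pairing of the libraries of a mouse it was 5, Eprs being added, and it was 4 with DESeq2's size factors and with 5 counts in 10 of 38 libraries. With DESeq2's Wald test 3 genes were called in NS, among 666 of all 8187 genes, and 1 in HC, among 625 of all 7588. For FC against NS and HC 3 and 7 passed. How many of all genes did is not given, so these 2 counts are no result about the family. Gars had -0.5 (log2) in the experiment of 4 mice, against 0.96. Without the block, 0 synthetase genes were called in NS and in HC, as with it, while calls over all genes went from 422 to 487 in FC and from 4 to 13 in NS, and the fit of 38 libraries was not run without it. The 114 values of summed levels under alternatives moved by less than 1 SD over mice. Leaving out 1 mouse can never move a mean by that much, so for those values the rule could not fail. It could hardly fail for cytosolic minus mitochondrial under another scaling, since a factor per library cancels in that difference. In NS and HC the SD is wide enough to hold changes of sign: NS mitochondrial went from 1.16 to -0.68 and NS cytosolic minus mitochondrial from -0.69 to 1.37 without mouse 18, and HC mitochondrial from -1.07 to 0.01 as the mean over genes. The causes were not tested.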
